A study of Mus musculus with 6 samples.

Results

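*Ptprz1*, which encodes the receptor tyrosine phosphatase deleted in the mutant mice, was examined together with the ligands and signalling partners of its product. The 9 genes, *Ptprz1*, *Ptn*, *Mdk*, *Ncl*, *Il34*, *Csf1*, *Fyn*, *Git1* and *Alk*, were taken by name from a table of 21999 genes, and all 9 were found. RNA came from cultures labelled as lung microvascular endothelial cells (LMVEC), of untreated mice of the SV129/B6 strain. There were 3 isolations from Ptprz1+/+ mice and 3 from Ptprz1-/- mice. For an isolation, lungs of 2 to 5 mice aged 3 to 8 weeks were pooled, and the confluent cultures were sorted on beads carrying an antibody to CD31, an endothelial surface protein. The labels name no allele restricted to a tissue or cell type. Values per library are given in the order of replicates 1, 2 and 3 of a genotype.

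PTPRZ1 is a transmembrane phosphatase that carries chondroitin sulfate chains and is best known from glia and neural progenitors. Pleiotrophin and midkine, both small heparin-binding growth factors, bind it and lower its phosphatase activity, which leaves substrates such as the kinase FYN and the adaptor GIT1 more phosphorylated. The same ligands also bind other surface proteins, among them nucleolin and the receptor kinase ALK, while interleukin 34 binds both PTPRZ1 and the macrophage receptor CSF1R, whose other ligand is CSF1.

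Counts of reads per gene, between 14496881 and 17709663 per library, were scaled to CPM (counts scaled to the library size, here after TMM normalization), and the genotypes were compared with edgeR's quasi-likelihood test over the 13609 genes that passed its filter on low counts. Of the 9 genes, 8 passed this filter and *Alk* did not. Taken as sums, markers of endothelium were low beside those of fibroblasts. The 12 endothelial marker genes summed to between 17.2 and 36.9 CPM in 4 libraries, and to 569 and 186 CPM in replicate 3 of Ptprz1+/+ and of the other genotype, whereas 10 fibroblast genes summed to between 10948 and 27396 CPM in the 6 libraries. *Pecam1*, which encodes CD31, was at 91.0 and 32.4 CPM in those libraries and at no more than 4.40 CPM in the other libraries, and no endothelial gene was at 0 in any library. Most of the fibroblast sum came from the collagen genes *Col1a1*, *Col1a2* and *Col3a1*, each between 2494 and 13911 CPM. The other fibroblast genes were between 3.47 and 1659 CPM. The sum of 8 smooth muscle and pericyte genes was between 841 and 4590.1 CPM. That of 6 mesothelial genes was 217, 55.8 and 90.7 CPM for Ptprz1+/+, against 1380, 115 and 279 CPM for the other label, which overlapped but was highest in replicate 1 of the latter. The part of these cell types in the results was not tested.

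The targeted gene, *Ptprz1* (ENSMUSG00000068748, GRCm38 chromosome 6 from 22875502 to 23052916, plus strand), was read in all 6 libraries. Among Ptprz1+/+ isolations its level was 11.9, 101 and 32.1 CPM, from 197, 1837 and 508 reads. The libraries labelled Ptprz1-/- gave 70.6, 90.6 and 59.1 CPM, from 1138, 1320 and 895 reads. The 3 libraries labelled Ptprz1-/- thus lay inside the range of the Ptprz1+/+ libraries, and the lowest library of all was a Ptprz1+/+ one. The group means were 48.3 ± 46.7 and 73.4 ± 15.9 CPM (SD, n = 3 each), a log2 fold change of 0.60 with a 95% interval from -1.08 to 2.29. Leaving out Ptprz1+/+ replicate 1 gave 0.15, and leaving out replicate 2 of that genotype gave 1.73. The labels therefore could not be checked by the level of this gene, and every direction given here rests on them. A count over the whole gene does not show which of the 28 merged exons that GENCODE M21 gives it were read, and 0 other genes had a transcript aligning to it over 100 bases or more. The gene is known from glia, and 6 Schwann cell and glial genes summed to 2.11, 9.51 and 9.21 CPM in Ptprz1+/+ and to 3.78, 1.85 and 7.73 CPM with the other label, where their defining gene *Sox10* had 0 reads in replicate 1 and no library exceeded 2.27 CPM of it. Their part in the level of *Ptprz1* was not tested.

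**Figure D1:**
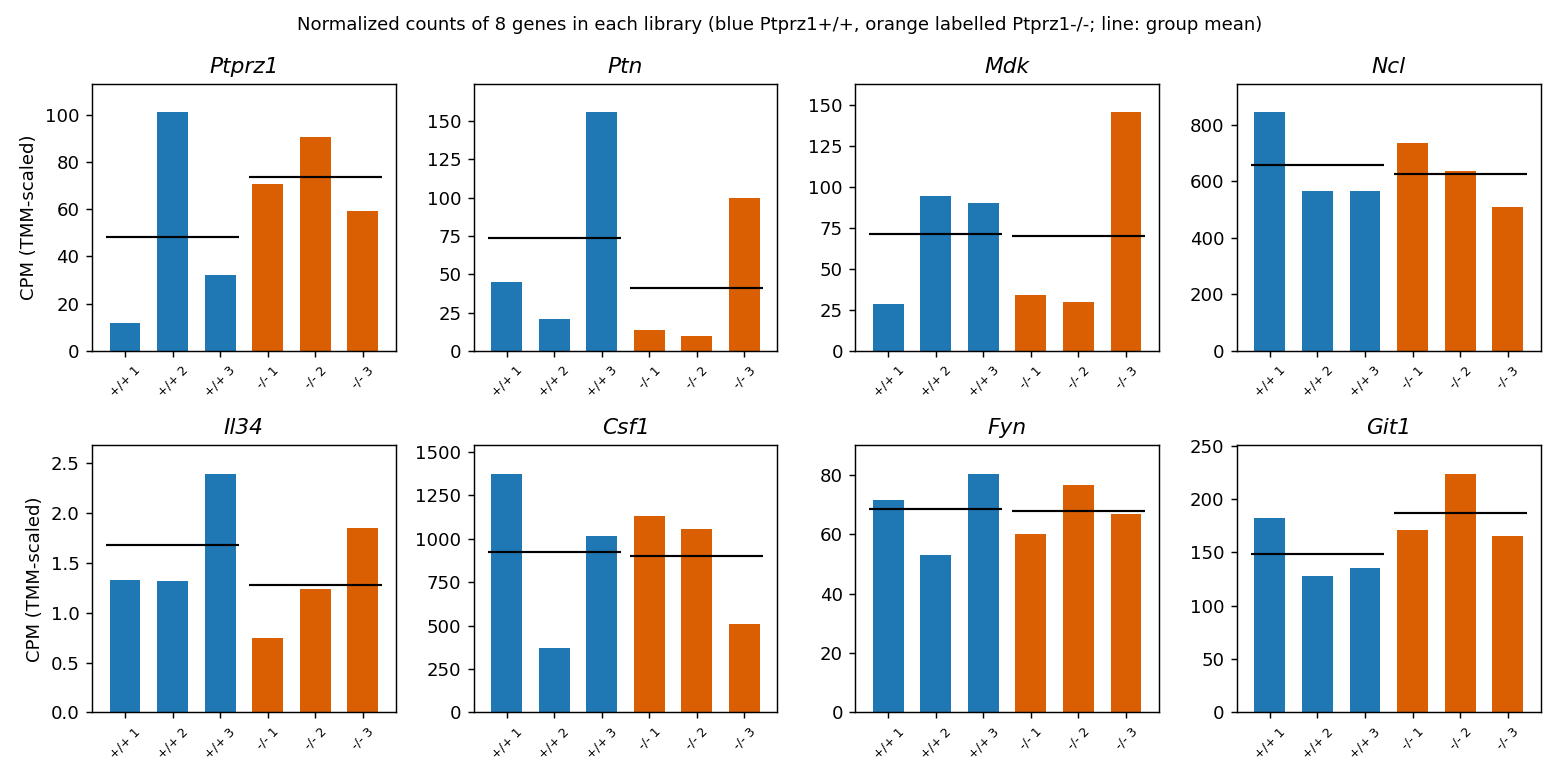
CPM (y axis, linear, from 0) of 8 genes in each of the 6 libraries (x axis, genotype label and replicate), with bars for libraries and a line at each group mean. *Ptprz1* stands at 59.1 to 90.6 CPM in the libraries labelled Ptprz1-/- and at 11.9 to 101 CPM in Ptprz1+/+, while *Ptn* is highest in replicate 3 of both genotypes, at 156 and 99.9 CPM.

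*Ptn* encodes pleiotrophin, a heparin-binding growth factor, and lies on the same chromosome as *Ptprz1*, 13.7 Mb from it (GRCm38 chromosome 6 from 36715663 to 36811361, minus strand, ENSMUSG00000029838). It measured 44.7, 20.8 and 156 CPM across Ptprz1+/+, against 14.0, 9.54 and 99.9 CPM across the libraries labelled Ptprz1-/-. It was high in replicate 3 of each genotype and low in the other 4, and the genotypes overlapped. The means were 73.7 ± 71.9 and 41.2 ± 50.9 CPM (SD, n = 3 each), with a log2 fold change of -0.84 and a 95% interval from -3.44 to 1.76. No other member spread as far, at 16.3-fold between its lowest and highest library, among the 8 that passed the filter. Without the library labelled Ptprz1-/- replicate 3 the estimate was -2.65, and without Ptprz1+/+ replicate 3 it was 0.33. With replicate 3 of both genotypes left out, which was added after the data were examined, it was -1.48 (unadjusted p = 0.0275, adjusted p = 1.00, edgeR's quasi-likelihood test and Benjamini-Hochberg's adjustment). Since the libraries left out were those where *Ptn* itself was highest, no conclusion is drawn from this p.

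The high *Ptn* libraries were those with the high endothelial marker sums, whose part in the level of *Ptn* was not tested. In RNA taken from all cells of an isolation together, fewer cells of a type and less RNA per cell cannot be told apart. By likeness of pattern, measured as the root mean square difference of log2 CPM over the 6 libraries after centring each gene on its mean, the 5 genes nearest to *Ptn* among 10649 were *Clca1* (0.38), *Fbn2* (0.51), *Pcdh1* (0.54), *Podxl* (0.59) and *Egfl7* (0.61), against a median of 1.49 for all genes compared. *Egfl7*, which encodes a factor secreted by endothelial cells, is itself among the 12 genes of the endothelial sum. It was at 38.2 and 10.6 CPM in replicate 3 of Ptprz1+/+ and of the other genotype and at no more than 5.00 CPM elsewhere. In these replicate 3 libraries, in the same order, *Clca1* was at 107 and 38.0 CPM, *Pcdh1* at 110 and 43.3 and *Podxl* at 22.7 and 15.5. *Fbn2* was also highest in these libraries, but higher in the one labelled Ptprz1-/-, at 46.9 and 55.7 CPM.

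*Mdk* encodes midkine, the other member of the pleiotrophin family (ENSMUSG00000027239, chromosome 2 from 91929805 to 91932297). It measured 28.6, 94.5 and 90.3 CPM across Ptprz1+/+, against 34.4, 29.6 and 145 CPM across the libraries labelled Ptprz1-/-. The 3 high and the 3 low libraries did not follow the genotype. The means were 71.1 ± 36.9 and 69.8 ± 65.5 CPM (SD, n = 3 each), so that the log2 fold change was -0.03, but with a 95% interval from -1.79 to 1.73. The sign turned in 4 of 6 fits with a single library removed. Removing replicate 3 of the Ptprz1-/- label gave -1.16, and removing replicate 2 of that label gave 0.34. *Mdk* was not a copy of the *Ptn* pattern, as Ptprz1+/+ replicate 2 was high for *Mdk* and low for *Ptn*. The genes nearest to *Mdk*, looked up after its values were seen, were *Mfap2* (0.24), which encodes a microfibril protein of the matrix, the endothelin receptor gene *Ednra* (0.26), the matrix protease gene *Adamts4* (0.26), *Lrp4* (0.28) and *Spats2l* (0.28).

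Compared per gene length within each library, which needs no scaling between libraries, *Ptn* was below *Mdk* in 6 of the 6. *Mdk* exceeded *Ptn* 1.23-, 8.69- and 1.11-fold for Ptprz1+/+, against 4.69-, 5.93- and 2.79-fold for the libraries labelled Ptprz1-/-. The log2 ratio of *Ptn* to *Mdk* was -1.19 ± 1.67 and -2.09 ± 0.56 (SD, n = 3 each), a difference of -0.90. An exact two-sided permutation test gave p = 0.40, where 3 libraries against 3 cannot go below 0.10.

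*Csf1* and *Il34* encode the ligands of CSF1R, and interleukin 34 is the one of them that also binds PTPRZ1. *Csf1* (ENSMUSG00000014599, chromosome 3 from 107741048 to 107760469) measured 1373, 370.5 and 1016 CPM across Ptprz1+/+, against 1129, 1054 and 509 CPM across the libraries labelled Ptprz1-/-. Its low libraries, Ptprz1+/+ replicate 2 and that labelled Ptprz1-/- replicate 3, were from different genotypes, and both were among the 3 libraries high for *Mdk*. The log2 fold change of *Csf1* was -0.04 (95% interval from -1.30 to 1.23), with -0.41 when Ptprz1+/+ replicate 2 was left out and 0.38 when replicate 1 of that genotype was. The genes nearest to *Csf1*, again looked up after its values were seen, were *Tspan15* (0.17), *Anxa3* (0.18), *Map1b* (0.18), *Irgm1* (0.19) and *Hspb7* (0.20).

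*Il34* (ENSMUSG00000031750, chromosome 8 from 110741829 to 110805924) rested on few reads, with 22, 24 and 38 for Ptprz1+/+, against 12, 18 and 28 for the libraries labelled Ptprz1-/-. This was 1.33, 1.32 and 2.40 CPM against 0.744, 1.24 and 1.85 CPM. The genotypes overlapped, and the log2 fold change of -0.40 had a 95% interval from -1.51 to 0.72. Exons of *Il34* overlap 22 and 75 bases of the antisense genes *Gm15894* and *Gm15895*, and whether counting used strand is not given in the sources used here. Per gene length, *Csf1* exceeded *Il34* 434-, 118- and 180-fold for Ptprz1+/+, against 626-, 357- and 116-fold for the libraries labelled Ptprz1-/-. The log2 ratio of *Il34* to *Csf1* differed between the genotypes by -0.50, with an SD of 0.96 for Ptprz1+/+ and 1.24 for the other label. An exact permutation test gave p = 0.80.

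**Figure D2:**
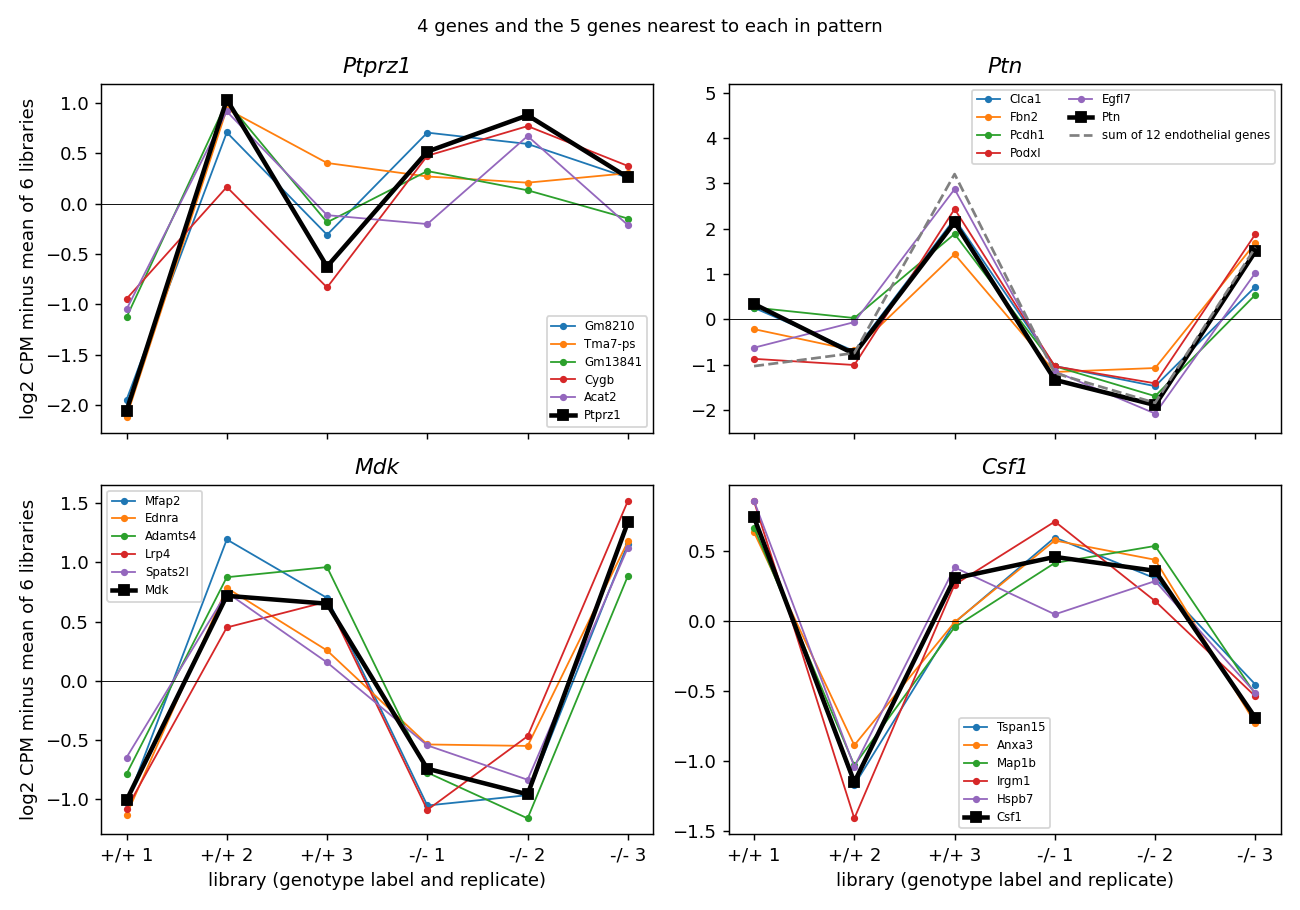
Log2 CPM minus the mean of the 6 libraries (y axis) for *Ptprz1*, *Ptn*, *Mdk* and *Csf1* (black squares) and the 5 genes nearest to each (coloured), by library (x axis), with the sum of 12 endothelial genes dashed beside *Ptn*. Lines only join the points of 1 gene. *Ptn* peaks with the endothelial sum in replicate 3 of both genotypes, whereas *Mdk* is also high, at 94.5 CPM, in Ptprz1+/+ replicate 2.

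Nucleolin, encoded by *Ncl*, is an abundant nucleolar protein that also reaches the cell surface, where it binds both growth factors. *Ncl* (ENSMUSG00000026234, chromosome 1 from 86344719 to 86359400) measured 843, 566 and 567 CPM across Ptprz1+/+, against 735, 637 and 508 CPM across the libraries labelled Ptprz1-/-. The log2 fold change was -0.07 (95% interval from -0.65 to 0.51), with overlapping genotypes. The exons of *Ncl* contain *Snora75*, a small nucleolar RNA of 133 bases, and its transcripts align to 2 processed pseudogenes, so its count is uncertain to that extent.

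*Alk* (ENSMUSG00000055471, chromosome 17 from 71869442 to 72603709) was barely read. It had 3, 3 and 1 reads for Ptprz1+/+, against 6, 3 and 0 for the libraries labelled Ptprz1-/-, which is 16 reads in all. The count of 0 allows up to 0.198 CPM, a limit that covers counting error only. No difference was detectable at this depth. *Ltk*, the gene of the related receptor kinase, had 5 reads in the library labelled Ptprz1-/- replicate 1 and 0 in each of the others.

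*Fyn* and *Git1* encode proteins inside the cell that the phosphatase acts on. *Fyn*, a kinase of the Src family (ENSMUSG00000019843, chromosome 10 from 39368855 to 39565381), measured 71.6, 53.1 and 80.3 CPM across Ptprz1+/+, against 59.9, 76.7 and 66.8 CPM across the libraries labelled Ptprz1-/-. Its log2 fold change was -0.01, with the narrowest 95% interval of the 8 genes, from -0.46 to 0.44. *Git1*, which encodes an adaptor of focal adhesions (ENSMUSG00000011877, chromosome 11 from 77493562 to 77507786), was at 182, 128 and 136 CPM against 171, 224 and 165 CPM in the same order. Ptprz1+/+ replicate 1 lay above 2 of the libraries labelled Ptprz1-/-, so the genotypes overlapped. The log2 fold change was 0.33 (95% interval from -0.15 to 0.81), and it stayed between 0.18 and 0.51 when each library was left out in turn.

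None of the 8 genes tested was called, as was none of the 13609 (0%) by edgeR's quasi-likelihood test and Benjamini-Hochberg's adjustment, with adjusted p = 1.00 for each of the 8. At an unadjusted p under 0.05 there were 0 of the 8 and 2.69% of all genes tested. The number of genes called was 31 with DESeq2 over the whole table (30 over the genes of the quasi-likelihood test), 17 with a likelihood ratio test in edgeR and 0 with limma voom, and none of these tests called any of the 8. In 0 of the 8, against 7.28% of all genes tested, did all libraries of one genotype lie beyond those of the other (3.55% with the libraries labelled Ptprz1-/- above and 3.73% with them below). The median log2 fold change of the 8 was -0.03, and that of all genes tested was -0.00466.

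The 9 genes spanned a wide range of levels. By FPKM as deposited, which scales reads to gene length and library total, the order was *Csf1* with 216 ± 89.1 (SD, n = 6), *Ncl* with 78.2 ± 14.9, *Mdk* with 67.6 ± 47.3, *Git1* with 47.5 ± 8.83, *Ptn* with 28.3 ± 28.5, *Fyn* with 19.0 ± 2.31, *Ptprz1* with 7.57 ± 4.26, *Il34* with 0.821 ± 0.311 and *Alk* with 0.0338 ± 0.0272. *Csf1* ranked 253 among the 21999 genes and *Ptprz1* ranked 6796. From *Csf1* down to *Fyn*, each gene's libraries overlapped with those of the next. *Fyn*, with a lowest FPKM of 15.3, lay above *Ptprz1*, with a highest of 12.9, and *Il34* and *Alk* were likewise apart. *Ptprz1*, with a lowest of 1.45, lay above *Il34*, with a highest of 1.29, on these lengths. The length used in the deposited FPKM was shorter than the merged exons of GENCODE M21 for the 9 genes, such as 8068 against 14245 bases for *Ptprz1*, and the order of the means was the same on either length. On the merged exons, however, the lowest library of *Ptprz1*, at 0.819, lay within the range of *Il34*, which reached 1.18, so that these neighbours overlapped.

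**Figure D3:**
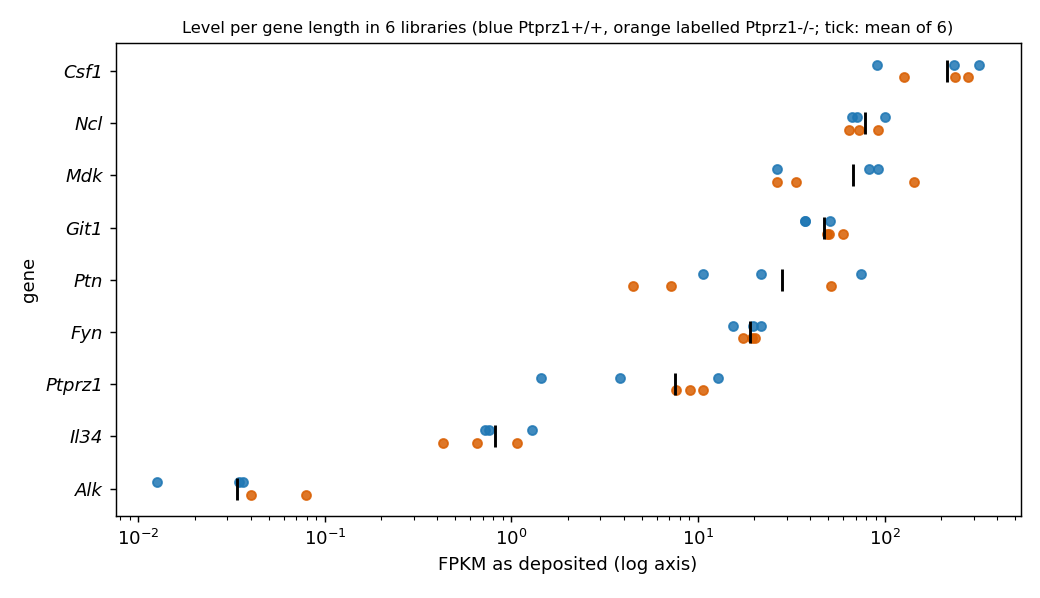
FPKM as deposited (x axis, log scale) of the 9 genes (y axis, by mean level), with 1 point per library and a tick at the mean of 6. The library at 0 for *Alk* cannot be drawn on this axis. *Fyn* keeps between 15.3 and 21.8, while *Ptn* runs from 4.46 to 74.5.

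In spread, the highest library exceeded the lowest 16.3-fold for *Ptn*, 8.49-fold for *Ptprz1*, 5.09-fold for *Mdk*, 3.71-fold for *Csf1* and 3.22-fold for *Il34*, on the CPM scale. For *Git1*, *Ncl* and *Fyn* it was 1.75-, 1.66- and 1.51-fold, near the median of 1.72-fold for all genes tested. The receptor and the secreted ligands thus lay above the median, as did *Git1* by a little. Of the genes tested, 93.1% had a smaller spread than *Ptprz1*, 96.5% than *Ptn*, 88.1% than *Mdk* and 83.1% than *Csf1*. For *Il34* it was 79.9%, and for *Git1* 51.9%. The spread of *Il34* rested on 12 to 38 reads per library, so that counting error adds to it. The spread of *Ptprz1* sat in the Ptprz1+/+ libraries, at 8.49-fold against 1.53-fold in those labelled Ptprz1-/-, and that of *Ptn* in both, at 7.47- and 10.5-fold.

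The genes nearest to *Ptprz1* in pattern were *Gm8210* (0.24), *Tma7-ps* (0.51), *Gm13841* (0.55), *Cygb* (0.58), which encodes the globin cytoglobin, and *Acat2* (0.59), an enzyme of cholesterol metabolism, against a median of 1.09 for the 10649 genes compared. The first 3 are pseudogenes. *Gm8210* had 39, 269 and 116 reads for Ptprz1+/+, against 238, 199 and 164 for the libraries labelled Ptprz1-/-. Its transcript and that of *Gm13841* align to each other at 100% identity over 483 bases and to the ribosomal protein gene *Rpl29* at 99.4%, so their counts are uncertain. *Rpl29* itself, named after this alignment was seen, was at 396 CPM in Ptprz1+/+ replicate 1 and between 65.4 and 127 CPM in the other 5 libraries. *Cygb* was at 64.6, 139 and 69.9 CPM across Ptprz1+/+, against 173, 212 and 161 CPM across the others, and like *Ptprz1* it was lowest in Ptprz1+/+ replicate 1.

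A list of 28 further partners of the receptor and its ligands was read from the same fit, and 26 of them passed the filter on low counts. None was called in either direction by edgeR's quasi-likelihood test (0 also with DESeq2). Of the 26, 3 (*Csf1r*, *Add2* and *Itgb3*) had an unadjusted p under 0.05 by the former test, against 2.69% of all genes tested. In 4, or 15.4% against 7.28% of all genes tested, the genotypes did not overlap (1 above and 3 below). The median log2 fold change of the 26 was -0.09, with 18 estimates below 0 and 8 above.

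Among further ligands, *Tnc*, which encodes the matrix protein tenascin-C, was at 175 ± 94.4 FPKM (SD, n = 6), *Vegfa* at 123 ± 33.2 and *Fgf2* at 6.83 ± 3.94. The level of *Fgf2* depends on the length, since the deposited 1240 bases stand against 6782 of merged exons, on which its mean would be 1.25. *Fgf2*, a growth factor gene, had 101, 144 and 52 reads for Ptprz1+/+, against 275, 116 and 121 for the libraries labelled Ptprz1-/-. Its genotypes did not overlap in CPM scaled by TMM, where the nearest libraries had 7.92 and 7.96 CPM, but did with upper-quartile scaling, and the log2 fold change of 0.93 (95% interval from -0.15 to 2.01) became 0.47 without the library labelled Ptprz1-/- replicate 1. Exons of *Fgf2* overlap 640 bases of the antisense gene *Nudt6* and 255 bases of *Gm43439* on the same strand, more than for *Il34*. *Nudt6* had 61, 75 and 28 reads for Ptprz1+/+, against 91, 46 and 29 for the libraries labelled Ptprz1-/-. Whether counting used strand is not given, so the count of *Fgf2* is uncertain, and the part of *Nudt6* in it was not tested. *Tnc* had a log2 fold change of -0.998 (95% interval from -2.39 to 0.40) and *Vegfa* one of -0.12, both with overlapping genotypes.

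*Csf1r*, the receptor gene shared by *Csf1* and *Il34*, had 52, 64 and 83 reads for Ptprz1+/+, against 25, 28 and 30 for the libraries labelled Ptprz1-/-. All 3 libraries labelled Ptprz1-/- lay below the others, at 1.55 to 1.98 CPM against 3.14 to 5.24 CPM. The log2 fold change was -1.12 (95% interval from -1.88 to -0.36), with an unadjusted p of 0.0107 and an adjusted p of 1.00 by edgeR's quasi-likelihood test and Benjamini-Hochberg's adjustment. The adjusted p was 0.68 with DESeq2 over the whole table and 0.58 with DESeq2 over the genes of the quasi-likelihood test, the lowest of the settings tried. *Csf1r* marks macrophages. The 5 of 6 leukocyte genes that were found summed to 10.0, 26.3 and 45.8 CPM across Ptprz1+/+, against 20.7, 8.65 and 13.5 CPM across the others. Most of each sum came from *Lyz2*, at 8.22, 17.4 and 40.1 CPM against 15.8, 6.25 and 10.7 CPM in the same order. *Ptprc*, the common leukocyte antigen gene, was at or below 0.558 CPM in each library. The part of leukocytes in the level of *Csf1r* was not tested. Exons of *Csf1r* overlap 873 bases of the antisense gene *Hmgxb3*, which had between 644 and 783 reads per library.

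The other receptors of these ligands included *Lrp1*, an endocytic receptor gene, at 328 ± 78.1 FPKM (SD, n = 6), and the heparan sulfate proteoglycan genes *Sdc4* at 93.2 ± 13.8 and *Sdc1* at 71.6 ± 37.9. *Itgb3*, the integrin beta 3 gene, had 254, 1525 and 533 reads in the Ptprz1+/+ libraries and 180, 255 and 265 in the others. Replicate 2 of Ptprz1+/+ thus held most reads of that genotype, and the genotypes overlapped. The log2 fold change was -1.52 (95% interval from -2.96 to -0.09). *Itgb3* had an unadjusted p of 0.0406 by edgeR's quasi-likelihood test and was not called after adjustment. Its usual partner *Itgav* had a log2 fold change of -0.09.

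Of the adhesion molecules that bind the receptor, *Ncam1* was at 14.4 ± 13.0 FPKM (SD, n = 6), *Nrcam* at 3.48 ± 1.62 and *Cntn1* at 0.568 ± 0.560, each with overlapping genotypes. On the merged exons their means would be 6.02, 1.97 and 0.341. *L1cam* had 19, 34 and 20 reads for Ptprz1+/+, against 7, 7 and 16 for the libraries labelled Ptprz1-/-, which did not overlap in CPM. It shares 100 exonic bases with *Arhgap4*, and its log2 fold change was -1.11 (95% interval from -2.26 to 0.03).

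The 10 intracellular effectors, apart from *Add2*, had overlapping genotypes and log2 fold changes between -0.27 for *Magi1* and 0.18 for *Pxn*. *Ctnnb1*, *Pxn* and *Src*, the genes of beta-catenin, paxillin and the kinase c-Src, had log2 fold changes of -0.08, 0.18 and -0.02. For *Src* the 95% interval was from -0.33 to 0.28. *Add2*, which encodes beta-adducin of the membrane skeleton, had 11, 175 and 28 reads for Ptprz1+/+, against 10, 2 and 5 for the libraries labelled Ptprz1-/-. These did not overlap in CPM, where the nearest libraries had 0.664 and 0.620 CPM. Exons of *Add2* overlap 356 bases of the antisense gene *Gm44089*. The log2 fold change of *Add2* was -3.43 (95% interval from -6.13 to -0.74), with an unadjusted p of 0.0202 by edgeR's quasi-likelihood test. Its adjusted p was lowest with DESeq2 over the whole table, at 0.252, so the gene was not called. Without Ptprz1+/+ replicate 2, which held most of its reads, the log2 fold change was -1.71.

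**Figure D4:**
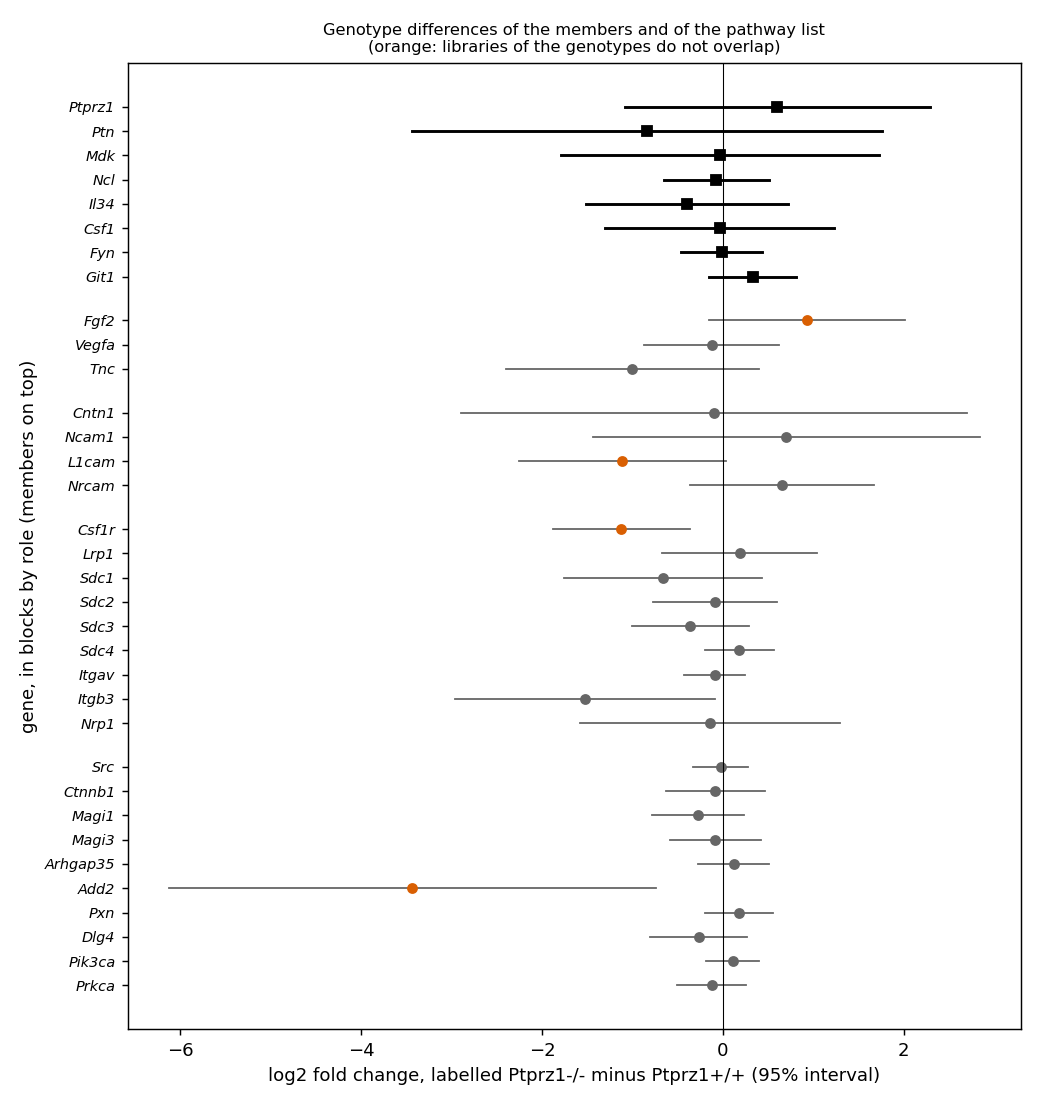
Log2 fold change of the libraries labelled Ptprz1-/- against Ptprz1+/+ (x axis) with its 95% interval, for the 8 tested genes (black squares) and 26 further partners (circles), in blocks by role. The genes in orange, *Fgf2*, *L1cam*, *Csf1r* and *Add2*, have genotypes that do not overlap in CPM, and none of the 34 genes drawn passed the adjusted threshold.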

How the data were processed

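Total RNA of cultures labelled LMVEC was sequenced in 6 libraries, grouped by the genotype in their titles. The authors deposited a table of read counts per gene, not normalized, and of FPKM values, which equal the count scaled to the deposited gene length and to the library total. Columns with the authors' own means, fold changes and p-values, and 3 lists drawn from them, were not used. Per the submitters' processing notes, STAR, HTSeq, TopHat, DESeq2 and edgeR were named, with no roles or versions, and the build was GRCm38.

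The test was edgeR's quasi-likelihood one (version 4.0.16, R 4.3.3), fitted by genotype alone after TMM scaling and filterByExpr. P-values were adjusted by Benjamini-Hochberg across every gene that was tested, at a threshold of 0.05. The code was tested on simulated data. Ratios used counts plus 0.5 and an exact permutation test. DESeq2 1.42.0, limma 3.58.1, other scalings and filters, and fits without single libraries were alternatives. GENCODE M21 gave exons, and its transcripts were aligned with minimap2 2.31. Members and lists were chosen with earlier results of these data known. Named were the 9 members, and from the partner list *Fgf2*, *Vegfa*, *Csf1r*, the 3 highest by FPKM per role and those without overlap between genotypes. *Itgb3*, *Itgav*, *Magi1* and *Ltk* were named after their values were seen. The 5 genes nearest in pattern to *Ptprz1* and *Ptn*, with at least 5 CPM on average, and marker genes were also named.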

Additional observations from a re-analysis of the deposited data

How the results depend on the processing

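The quasi-likelihood test called 0 of 13609 genes, against 17 of the same genes with the likelihood ratio test. DESeq2 called 31 of 21943 genes, and 30 when given only the 13609, of which 13571 received a p-value, an alternative added after the data were examined. The count was also 0 with RLE or upper-quartile scaling, without a filter, with at least 10 counts in every library, with limma voom, with a threshold of 0.1, with the replicate block, without replicate 3 of both genotypes, and in the 6 fits without 1 library. None of these called a gene of the 9 or of the partner list. The log2 fold change of *Csf1* turned to 0.063 with limma voom, 0.055 with the replicate block and 0.32 without replicate 3 of both genotypes, and that of *Fyn* to 0.00093, 0.00074 and 0.13. The cause was not tested. Same-numbered libraries deviated from their group means with correlations of 0.45, -0.06 and 0.52 over 13609 genes. For libraries of unlike number the correlations lay between -0.57 and 0.09. The sample titles do not say whether the numbers mark pairs, and the main fit did not take them as pairs. The block gave *Ptn* a log2 fold change of -1.14 (unadjusted p = 0.00586, adjusted p = 0.68, edgeR), and limma voom also -1.14. For *Ptprz1* the block gave 1.07 and limma voom 1.08 against 0.60, and for *Mdk* they gave -0.21 and -0.24 against -0.03.

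Without each library in turn, the log2 fold change ranged from 0.15 to 1.73 for *Ptprz1*, -2.65 to 0.33 for *Ptn*, -1.16 to 0.34 for *Mdk*, -0.20 to 0.15 for *Ncl*, -0.77 to -0.05 for *Il34*, -0.41 to 0.38 for *Csf1*, -0.17 to 0.12 for *Fyn* and 0.18 to 0.51 for *Git1*. The difference in log2 ratio ranged from -1.87 to -0.39 for *Ptn* to *Mdk* and -1.17 to 0.043 for *Il34* to *Csf1*. *Il34* and *Alk* are limited by depth.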
